A study of Mus musculus with 5 samples.

Results

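The TNF superfamily of ligands and receptors was described in uveal tissue of wild-type mice and in eye tumors of mice whose Hippo kinase genes Lats1 and Lats2 can be deleted by Cre recombinase. Members were taken by gene symbol: every locus named Tnfsf or Tnfrsf with a number, together with Tnf, Lta, Ltb, Ltbr, Fas, Fasl, Cd27, Cd70, Cd40 and Cd40lg. This gave 40 loci, 16 with ligand genes and 24 with receptor genes, of 24768 loci in the table and 23141 with a gene name. One of the 16 ligand loci holds Tnfsf12 and Tnfsf13 together with BC096441, and its value cannot be divided among them. The wild-type group had 2 libraries of RNA from uvea of adult animals. The tumor group had 3 libraries from eye tumors of adults with the genotype AAV5-Cre;Lats1/2 fl/fl, in which both genes carry floxed alleles and an adeno-associated virus of serotype 5 delivers Cre. The wild-type animals are not described as having received the virus, so deletion, viral injection and tumor state cannot be told apart. Which promoter drives Cre, which cells it reaches and whether each library comes from its own animal are not given in the labels. P-values therefore measure the spread between these libraries, which may be technical.

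Ligands of the TNF superfamily are mostly trimers that sit on the cell surface or are shed from it, and their receptors signal when a ligand clusters them. A first class of receptors, with Tnfrsf1a and Fas, carries a death domain and can recruit adaptors that activate caspases. A second class, with Tnfrsf1b, Cd40, Ltbr and Tnfrsf11a, binds TRAF adaptors and turns on NF-kB, while decoy receptors such as osteoprotegerin (Tnfrsf11b) bind a ligand without passing on a signal. Many ligands and costimulatory receptors are made by lymphocytes and myeloid cells, whereas Tnfrsf1a, Ltbr and Tnfrsf12a are also made by tissue cells.

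Each library held between 12687703 and 14368272 estimated fragments. The level of Lats1 was 7.55 and 8.86 FPKM (fragments scaled for transcript length and library depth) in wild type and 3.43, 3.90 and 2.94 FPKM in tumor libraries 1, 2 and 3, and it fell (log2 fold change -1.21, SE 0.18, adjusted p = 0.012). Lats2 measured 20.0 and 20.2 FPKM in wild type and 12.6, 17.0 and 14.3 FPKM in tumors. It was lower in each tumor library without passing the test (log2 fold change -0.62, SE 0.19, adjusted p = 0.058). It passed without tumor library 2 (adjusted p = 0.017) and in DESeq2 (adjusted p = 0.015). In edgeR it did not pass without tumor library 1 (adjusted p = 0.093) or tumor library 3 (adjusted p = 0.098). Summed levels of 10 pigment cell markers were 6867 and 6641 FPKM in wild type and 34.3, 80.1 and 10.6 FPKM in tumors, and 9 of the 10 fell, so the markers that define the pigmented uvea were low in the tumors. The 15 macrophage markers summed to 1007 and 985 FPKM in wild type and 7809, 4915 and 15937 FPKM in tumors, and 12 of 15 rose. Among lymphocyte lists, 10 of 13 T cell markers and 6 of 10 B and plasma cell markers rose. The T cell list sums to 20.1 and 19.3 FPKM in wild type and 304, 274 and 193 FPKM in tumors, most of it Thy1, which other cells also make. Without Thy1 the other 12 sum to 5.71 and 4.52 FPKM in wild type and 38.2, 39.4 and 98.1 FPKM in tumors. One of them, Cd3g, a part of the T cell receptor complex, measured 0.729 and 0.590 FPKM in wild type and 9.12, 11.3 and 20.3 FPKM in tumors. Tumor library 1 stood apart in 12 skeletal muscle markers, which summed to 618 and 589 FPKM in wild type and 8349.5, 491 and 526 FPKM in tumors. In such bulk samples, more cells of a type and more RNA per cell cannot be told apart, and the part of these cell types in the results below was not tested.

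Of the 40 loci, 33 had enough fragments to be tested and 7 were under the filter on low counts. Among the 33, 18 rose in tumors and 1 fell, while 14 did not pass. Among all 15241 loci tested, 18.7% rose and 15.4% fell. Since a member that is low in wild type could pass the filter only through its tumor level, the count is a description of the loci tested and not of the whole family. Groups did not overlap and tumors were higher for 29 of the 33, against 33.7% of all loci tested, and tumors were lower for 2, against 35.9%. DESeq2, run as a second count test, called 25 rises and 1 fall of the 40 loci, where 22.4% and 19.9% of all loci with an adjusted p rose and fell. The median log2 fold change of the 33 was 2.30, and that of all loci tested was 0.048. It was 3.81 for the 12 ligand loci tested (3.42 with Tnfsf18, absent from wild type, at its bound) and 2.02 for the 21 receptor loci. Without tumor library 1, 17 members rose (15.9% of all loci) and Tnfrsf19 no longer passed, while 13.7% of all loci fell, and without tumor library 3, 20 rose (18.7% of all loci). With either wild-type library left out, 1 remained in that group and edgeR called no locus of the table. On the ligand side 6 rose (Ltb, Tnfsf13b, Tnfsf8, Tnfsf18, Tnfsf14 and Tnfsf11), and on the receptor side 12 rose and Tnfrsf19 fell. The member loci together held 6517 and 6034 estimated fragments in wild type and 10953, 11203 and 15015 in tumors, unscaled.

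**Figure D1:**
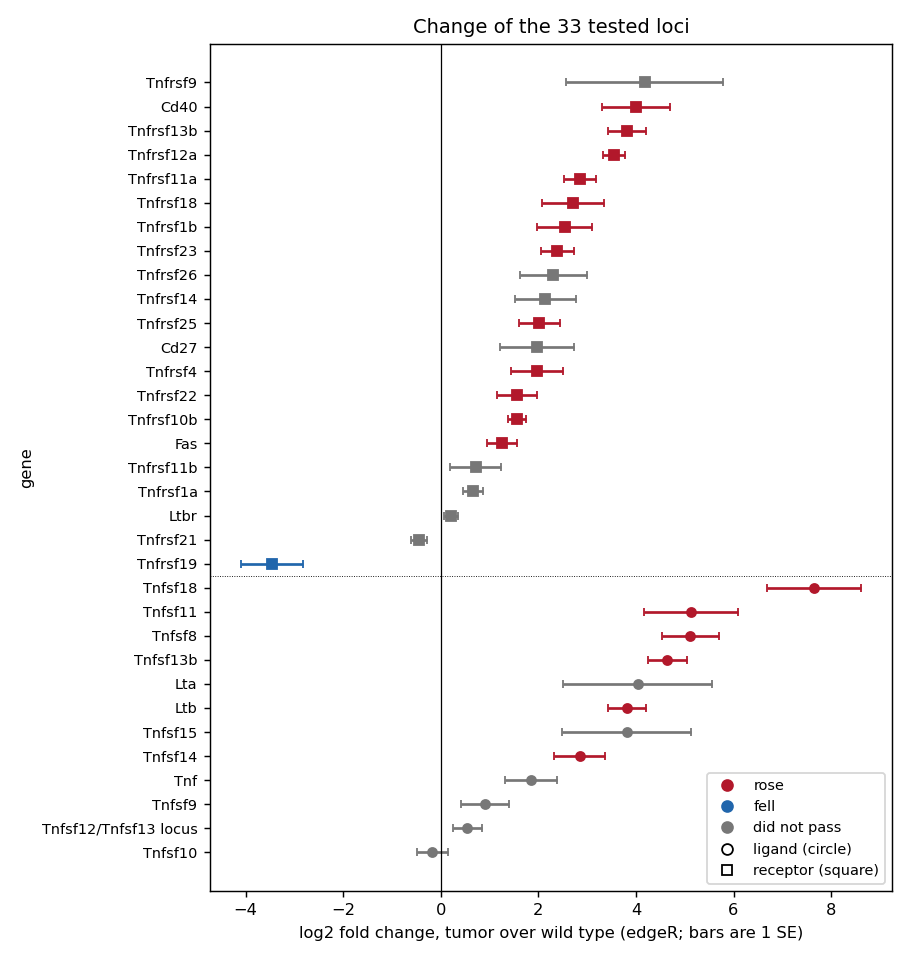
Log2 fold change of tumor over wild type with its SE (horizontal axis) for the 33 TNF superfamily loci tested (vertical axis), with circles for ligands, squares for receptors, and color for loci that rose, fell or did not pass. The 18 that rose lie between 1.25 and 7.66 and Tnfrsf19 lies at -3.46; the value of Tnfsf18, which has no fragment in wild type, depends on the prior count of the model.

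The order of levels within the family differed between the groups. In wild type the receptors Tnfrsf1a and Ltbr came first, the locus of Tnfsf12 and Tnfsf13 next, then Tnfrsf21, Tnfrsf19 and Tnfrsf12a. In tumors Tnfrsf12a stood first at 110.4 ± 11.7 FPKM (SD, n = 3), ahead of Tnfrsf1a at 86.8 ± 15.3 FPKM (SD, n = 3), and the values of this pair overlap, since tumor library 3 holds 97.6 FPKM of the former and 104 FPKM of the latter. Ltbr at 57.0 ± 4.85 FPKM (SD, n = 3) and the Tnfsf12 and Tnfsf13 locus at 56.5 ± 18.6 FPKM (SD, n = 3) followed and do not differ from each other beyond their spread. Below them came Tnfrsf1b, Ltb and Tnfrsf14, whose ranges overlap. A mean above 1 FPKM was reached by 16 of the 40 loci in wild type and by 29 in tumors, and above 10 FPKM by 5 and 12. By the deposited group means, 14262 of all 24768 loci were above 1 FPKM in wild type and 14457 in tumors. The count above 1 FPKM went from 4 to 8 over the ligand loci and from 12 to 21 over the receptor loci. Summed receptor levels were 183 and 179 in wild type and 364, 375 and 473 in tumors (FPKM), of which Tnfrsf1a and Ltbr made up 60.1% and 59.2% in wild type and 35.8%, 36.0% and 35.0% in tumors. In all, 8 such sums and ratios were computed, and for each the groups do not overlap. An exact permutation test gave a two-sided p of 0.2 for every one of the 8, which is the smallest that 2 against 3 libraries allow and stays 0.2 after adjustment.

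**Figure D2:**
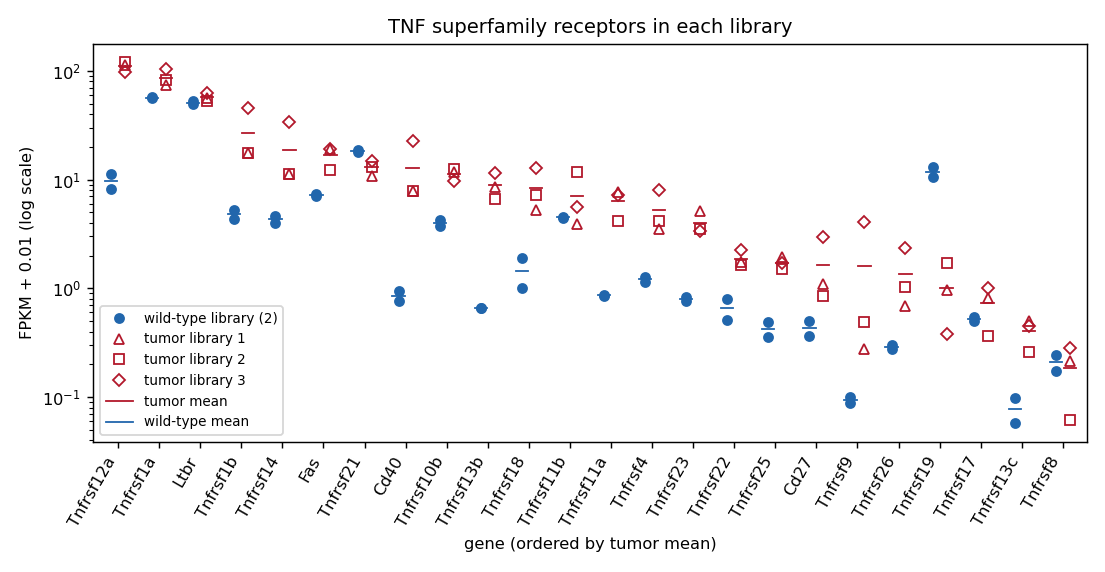
FPKM plus 0.01 on a log axis for each of the 24 receptor loci, with filled circles for the 2 wild-type libraries, open symbols for tumor libraries 1 (triangle), 2 (square) and 3 (diamond), and lines at group means. Tnfrsf12a reaches 113, 120.5 and 97.6 FPKM in tumors, and Tnfrsf19 is the receptor whose tumor libraries lie far under wild type.

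The member that rose with the smallest p was Tnfrsf12a, the small receptor for TWEAK, the product of Tnfsf12. It was at 11.2 and 8.25 FPKM in the wild-type libraries and at 113, 120.5 and 97.6 FPKM in the tumors. All tumor libraries lay far above both wild-type libraries and close to each other (log2 fold change 3.55, SE 0.23, adjusted p = 0.0034). Its share of the summed receptor level went from 6.12% and 4.62% to 31.1%, 32.1% and 20.6%. The gene lies on the minus strand of mm10 at chr17:23675445-23677468. Its ligand could be read only from the locus shared by Tnfsf12 and Tnfsf13 (chr11:69686250-69695849 and chr11:69682846-69685784), which gave 41.9 and 38.5 FPKM in wild type and 49.2, 42.8 and 77.7 FPKM in tumors. Tumor library 3 alone stood well above wild type there, and the locus did not pass the test (log2 fold change 0.54, SE 0.30, adjusted p = 0.21).

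Promoter letters were read for 31 of the 41 member genes that have an entry in the RefSeq table of GRCm38.p6, the same assembly as mm10. The windows reach from 250 bases before to 50 bases after the start. A kB-type element bound by NF-kB, searched as GGGA and TTCC with any 2 bases between them, and the core letters of TEAD sites, GGAATG, were looked for on both strands; TEAD factors carry the coactivators that Lats kinases restrain. Sequences upstream of 3 genes are shown: Tnfrsf12a for the rise just described, and Ltb and Tnfrsf1b, chosen after the matches were seen, because they rose and hold matches upstream of the start. Capitals mark a match on either strand, and each run is 5′ to 3′ on the gene's strand and ends just before the RefSeq start.
Tnfrsf12a promoter, chr17:23677450-23677699, minus strand: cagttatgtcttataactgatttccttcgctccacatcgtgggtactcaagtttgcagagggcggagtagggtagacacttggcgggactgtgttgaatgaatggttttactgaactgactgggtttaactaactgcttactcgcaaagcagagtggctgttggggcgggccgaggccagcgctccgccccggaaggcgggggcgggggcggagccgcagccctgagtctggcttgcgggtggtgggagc
Ltb promoter, chr17:35194257-35194506, plus strand: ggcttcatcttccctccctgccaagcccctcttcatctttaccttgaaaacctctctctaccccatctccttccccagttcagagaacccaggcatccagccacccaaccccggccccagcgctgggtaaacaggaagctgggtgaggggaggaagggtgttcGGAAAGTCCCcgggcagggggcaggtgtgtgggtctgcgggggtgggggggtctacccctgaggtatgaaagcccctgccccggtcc
Tnfrsf1b promoter, chr4:145246871-145247120, minus strand: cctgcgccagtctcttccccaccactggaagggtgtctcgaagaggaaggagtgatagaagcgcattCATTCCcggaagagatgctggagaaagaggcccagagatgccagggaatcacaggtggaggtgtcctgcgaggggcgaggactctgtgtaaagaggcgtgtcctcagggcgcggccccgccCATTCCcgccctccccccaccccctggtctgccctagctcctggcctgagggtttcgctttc
The Tnfrsf12a window holds neither set of letters. That of Ltb holds GGAAAGTCCC, a kB match read on the other strand, beginning 87 bases before the start, and that of Tnfrsf1b holds the TEAD letters as CATTCC at 183 and 62 bases before it. Among all 32851 promoters of the table, 1.47% hold the kB letters and 14.7% the TEAD letters. By gene, 1 of 31 members held the kB letters (1.63% of 27025 genes) and 5 of 31 the TEAD letters (16.6% of genes): Tnfrsf1b, Tnfrsf11a, Tnfsf13, Tnfsf15 and Tnfsf18. A match describes the letters and is not a measured site.

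Of the core cytokines, lymphotoxin beta rose and Tnf itself did not pass. Ltb, which anchors lymphotoxin at the cell surface and takes part in forming lymphoid tissue, measured 1.84 and 1.54 FPKM in wild type and 21.4, 17.0 and 31.0 FPKM in tumors, with every tumor library at least several times above wild type (log2 fold change 3.82, SE 0.39, adjusted p = 0.0064). Tnf, the cytokine that gave the family its name, measured 0.896 and 0.682 FPKM in wild type and 2.04, 1.97 and 4.30 FPKM in tumors. The groups did not overlap and tumor library 3 was highest, but the adjusted p missed the threshold (log2 fold change 1.85, SE 0.54, adjusted p = 0.054). DESeq2 gave Tnf an adjusted p of 0.018, and edgeR gave 0.044 without tumor library 2 and 0.044 without tumor library 3. It missed the threshold in edgeR without tumor library 1 (adjusted p = 0.068) and in limma-voom (adjusted p = 0.090). DESeq2 without tumor library 3 did not call it either (adjusted p = 0.12). Lta, the soluble lymphotoxin, had 1 fragment over both wild-type libraries and 31 over the tumors. Its levels were 0 and 0.0682 FPKM against 0.119, 0.605 and 1.21 FPKM in tumors, a depth-scaled ratio of 20.0 (95% counting interval 3.33 to 814) that did not pass (adjusted p = 0.0997). The genes lie side by side on chromosome 17 within 10.91 kb, in the order Ltb, Tnf, Lta.

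**Figure D3:**
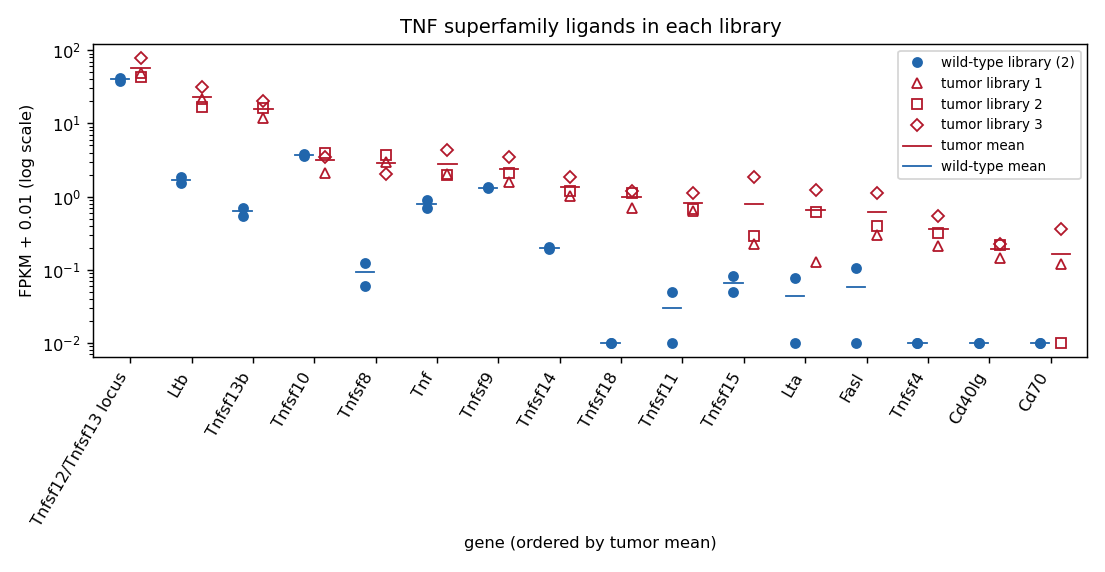
FPKM plus 0.01 on a log axis for each of the 16 ligand loci, with symbols as for the receptors. Tnfsf18, Tnfsf4, Cd40lg and Cd70 have no fragment in either wild-type library, and Tnfsf10 is the tested ligand whose groups overlap.

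Of the receptors for these cytokines, Tnfrsf1b rose, while Tnfrsf1a and Ltbr did not pass. Tnfrsf1b, the TNF receptor that binds TRAFs and is abundant on leukocytes, measured 4.33 and 5.29 FPKM in wild type and 17.5, 17.6 and 45.9 FPKM in tumors. It rose, with tumor library 3 far above the other tumor libraries (log2 fold change 2.54, SE 0.56, adjusted p = 0.028), and without that library the log2 fold change was 1.91 (adjusted p = 0.0061). Tnfrsf1a, the broadly expressed TNF receptor with a death domain, was at 57.4 and 56.3 FPKM against 74.0, 82.6 and 104 FPKM in tumors. Each tumor library was above wild type, yet edgeR did not call it (log2 fold change 0.66, SE 0.20, adjusted p = 0.059) and DESeq2 did (adjusted p = 0.020), as did edgeR without tumor library 1 (adjusted p = 0.045). EdgeR did not call it without tumor library 2 (adjusted p = 0.070) or tumor library 3 (adjusted p = 0.061). The ratio of Tnfrsf1b to Tnfrsf1a was 0.0753 and 0.0940 in wild type and 0.236, 0.213 and 0.442 in tumors. Ltbr, the receptor of Ltb and Tnfsf14 on stromal and myeloid cells, was at 52.4 and 49.6 FPKM against 56.2, 52.6 and 62.2 FPKM in tumors, a difference of 0.21 on the log2 scale with an SE of 0.15 (adjusted p = 0.31). Cd27, Ltbr and Tnfrsf1a lie within 129.9 kb on chromosome 6, and none of the 3 passed in edgeR, while DESeq2 called Tnfrsf1a but not Cd27 or Ltbr and the unadjusted p was under 0.05 for Cd27 and Tnfrsf1a.

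In the arm of the family that keeps B cells alive, the ligand Tnfsf13b and the receptor Tnfrsf13b rose. Tnfsf13b encodes BAFF, on which mature B cells depend, and lies at chr8:10006467-10039072. It measured 0.698 and 0.538 FPKM in wild type and 11.7, 16.0 and 20.1 FPKM in tumors, without overlap (log2 fold change 4.64, SE 0.40, adjusted p = 0.0051). Tnfrsf13b, the BAFF receptor TACI of B and plasma cells, was at 0.645 and 0.654 FPKM against 8.59, 6.64 and 11.6 FPKM in tumors and rose (log2 fold change 3.82, SE 0.39, adjusted p = 0.0064). The other receptors of BAFF were under the filter. Tnfrsf13c measured 0.0875 and 0.0472 FPKM in wild type and 0.496, 0.251 and 0.441 FPKM in tumors, a ratio of 6.01 (95% counting interval 1.86 to 30.9). Tnfrsf17, a plasma cell receptor, was at 0.492 and 0.531 FPKM against 0.813, 0.353 and 0.991 FPKM in tumors, and its groups overlapped. Its ratio was 1.45 (95% counting interval 0.600 to 3.85). The B and plasma cell markers summed to 41.0 and 44.4 FPKM in wild type and 284, 182 and 129.6 FPKM in tumors, most of the sum being Igj in tumor library 1, the highest, whereas Tnfsf13b and Tnfrsf13b were highest in tumor library 3.

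Among costimulatory ligands, 3 of the 5 tested rose. Tnfsf8, the ligand of the lymphocyte receptor Tnfrsf8, measured 0.115 and 0.0497 FPKM in wild type and 2.96, 3.64 and 2.01 FPKM in tumors (log2 fold change 5.11, SE 0.58, adjusted p = 0.0076), a depth-scaled ratio of 35.6 (95% counting interval 17.1 to 89.2). Tnfrsf8 itself was under the filter at 0.163 and 0.234 FPKM against 0.205, 0.0520 and 0.274 FPKM in tumors, with overlapping groups. Its depth-scaled ratio was 0.921 (95% counting interval 0.316 to 2.85). Tnfsf18, the ligand of GITR, had no fragment in either wild-type library and 18, 29 and 29 fragments in tumors (0.680, 1.11 and 1.17 FPKM). Against a floor of 3 fragments per wild-type library it was at least 8.19-fold higher (adjusted p = 0.014). Tnfsf14, known as LIGHT, was at 0.180 and 0.194 FPKM against 1.02, 1.17 and 1.82 FPKM in tumors and rose (log2 fold change 2.84, SE 0.52, adjusted p = 0.019). It had 8 fragments over both wild-type libraries, and the depth-scaled ratio was 7.33 (95% counting interval 3.57 to 17.5). Tnfsf15 was at 0.0397 and 0.0713 FPKM against 0.212, 0.278 and 1.82 FPKM in tumors. It had 8 fragments over both wild-type libraries, a depth-scaled ratio of 14.2 (95% counting interval 7.04 to 33.4). It did not pass with all libraries (log2 fold change 3.81, SE 1.32, adjusted p = 0.081) and passed without tumor library 3, at a smaller log2 fold change of 2.16 (adjusted p = 0.040). DESeq2 called it with all libraries (adjusted p = 0.0091) but not without tumor library 3 (adjusted p = 0.12). Tnfsf9 was at 1.31 and 1.33 FPKM against 1.58, 2.09 and 3.51 FPKM in tumors and did not pass (log2 fold change 0.90, SE 0.49, adjusted p = 0.21). The T cell ligands Cd40lg, Cd70 and Tnfsf4 were under the filter and without a fragment in wild type. They reached at most 0.215, 0.354 and 0.534 FPKM in a tumor library, and for Tnfsf4 the tumors were at least 2.17-fold higher against the same floor.

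Of the costimulatory receptors, 3 of the 6 tested rose. Cd40, through which T cells license dendritic cells, macrophages and B cells, measured 0.749 and 0.926 FPKM in wild type and 7.87, 7.92 and 22.7 FPKM in tumors. Every tumor library was above wild type, library 3 most (log2 fold change 4.0, SE 0.70, adjusted p = 0.017), with a log2 fold change of 3.30 without that library (adjusted p = 0.0064). Tnfrsf18, or GITR, a receptor of regulatory and activated T cells, was at 0.997 and 1.87 FPKM against 5.28, 7.13 and 12.8 FPKM in tumors (log2 fold change 2.70, SE 0.64, adjusted p = 0.033). Tnfrsf4, another receptor of activated T cells, was at 1.25 and 1.14 FPKM against 3.51, 4.16 and 8.06 FPKM in tumors (log2 fold change 1.97, SE 0.53, adjusted p = 0.044). Both lie within 15.05 kb of each other on chromosome 4, and a predicted gene on the opposite strand overlaps an exon of Tnfrsf18, so its reads cannot be separated where the strand is not known. By limma-voom, the adjusted p was 0.068 for Cd40, 0.056 for Tnfrsf18 and 0.073 for Tnfrsf4, which also missed the threshold in edgeR without tumor library 1 (adjusted p = 0.065).

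The other 3 tested costimulatory receptors had higher values in each tumor library without passing. Tnfrsf14, a receptor of LIGHT on lymphoid and other cells, was at 4.58 and 3.996 FPKM against 11.3, 11.2 and 33.6 FPKM in tumors (log2 fold change 2.14, SE 0.62, adjusted p = 0.053). Its tumor libraries 1 and 2 lay close together and library 3 well above them. It passed without library 2 (adjusted p = 0.039) and without library 3, at 1.43 on the log2 scale (adjusted p = 0.019). DESeq2 called it with all libraries (adjusted p = 0.0052). It did not pass in edgeR without library 1 (adjusted p = 0.061) or in limma-voom (adjusted p = 0.12). Cd27, a receptor of T and memory B cells, was at 0.489 and 0.351 FPKM against 1.08, 0.832 and 2.95 FPKM in tumors (log2 fold change 1.97, SE 0.76, adjusted p = 0.10), and at 1.21 on the log2 scale without tumor library 3. Tnfrsf9, found on activated T cells, was at 0.0779 and 0.0904 FPKM against 0.268, 0.477 and 4.07 FPKM in tumors, with tumor library 3 far above the others (log2 fold change 4.18, SE 1.61, adjusted p = 0.10). Both wild-type libraries together held 4 fragments of Tnfrsf9, and its depth-scaled ratio was 18.7 (95% counting interval 7.11 to 69.7). With all libraries DESeq2 called Tnfrsf9 (log2 fold change 4.23, adjusted p = 0.018) and limma-voom did not (adjusted p = 0.27). Without library 3 it was under the filter, and DESeq2 then gave a log2 fold change of 2.15 (adjusted p = 0.28).

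On the death receptor side, 3 of the 4 receptors with a death domain beyond Tnfrsf1a rose, while the ligands stayed low or did not pass. Fas, which starts apoptosis when bound by Fas ligand, measured 7.36 and 7.07 FPKM in wild type and 18.9, 12.2 and 19.3 FPKM in tumors (log2 fold change 1.25, SE 0.31, adjusted p = 0.037). The call was not kept without tumor library 1 (adjusted p = 0.075) or tumor library 3 (adjusted p = 0.062). Tnfrsf10b, the mouse receptor that signals death for TRAIL, was at 3.70 and 4.21 FPKM against 11.6, 12.4 and 9.80 FPKM in tumors, with the tumor libraries close together (log2 fold change 1.56, SE 0.19, adjusted p = 0.0081). Tnfrsf25, a lymphocyte receptor for the product of Tnfsf15, was at 0.480 and 0.350 FPKM against 1.91, 1.48 and 1.72 FPKM in tumors (log2 fold change 2.02, SE 0.42, adjusted p = 0.024). Tnfrsf21, a death domain receptor best known in neurons, was lower in each tumor library at 18.6 and 18.0 FPKM against 10.8, 13.2 and 14.8 FPKM, and did not pass (log2 fold change -0.45, SE 0.17, adjusted p = 0.0997). Fasl, made by cytotoxic T and NK cells, was under the filter at 0 and 0.0953 FPKM against 0.284, 0.381 and 1.13 FPKM in tumors, a ratio of 13.5 (95% counting interval 3.52 to 115). Tnfsf10, which encodes TRAIL, was at 3.58 and 3.79 FPKM against 2.07, 3.95 and 3.44 FPKM in tumors. Its groups overlapped (log2 fold change -0.17, SE 0.32, adjusted p = 0.70). Without tumor library 1 the fold change turned to 0.058 (adjusted p = 0.82).

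Mouse carries a cluster of decoy or orphan receptor genes of the family on chromosome 7, where Tnfrsf26, Tnfrsf22 and Tnfrsf23 span 78.21 kb. Tnfrsf23 measured 0.821 and 0.755 FPKM in wild type and 5.15, 3.49 and 3.36 FPKM in tumors and rose (log2 fold change 2.39, SE 0.33, adjusted p = 0.011). Tnfrsf22 was at 0.791 and 0.504 FPKM against 1.73, 1.62 and 2.24 FPKM in tumors and rose closer to the threshold (log2 fold change 1.57, SE 0.41, adjusted p = 0.041), a call not kept without tumor library 1 (adjusted p = 0.067) or tumor library 3 (adjusted p = 0.053). Their transcripts share an aligned stretch of 1451 bases at 91.7% identity, so counting may have divided reads between them and the value of each is uncertain. Tnfrsf26 was at 0.268 and 0.289 FPKM against 0.684, 1.03 and 2.32 FPKM in tumors and did not pass (log2 fold change 2.30, SE 0.68, adjusted p = 0.056), but did without tumor library 1 (adjusted p = 0.045) or tumor library 3 (1.65 on the log2 scale, adjusted p = 0.043). It did not pass in edgeR without tumor library 2 (adjusted p = 0.062) or in limma-voom with all libraries (adjusted p = 0.12). An RNA on the opposite strand overlaps exons of Tnfrsf23 and Tnfrsf26.

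RANK ligand and its receptor RANK, which together drive the formation of osteoclasts and also act in lymph nodes, both rose. Tnfsf11, for RANK ligand, had 1 fragment over both wild-type libraries, at 0 and 0.0395 FPKM, and 0.623, 0.667 and 1.11 FPKM in tumors. The depth-scaled ratio was 43.2 (95% counting interval 7.49 to 1730.4) and the adjusted p = 0.020. Tnfrsf11a, for RANK, was at 0.847 and 0.859 FPKM against 7.70, 4.19 and 7.22 FPKM in tumors, lowest among tumors in library 2 (log2 fold change 2.85, SE 0.34, adjusted p = 0.0081). The decoy of the pair, Tnfrsf11b, was at 4.44 and 4.51 FPKM against 3.90, 11.9 and 5.53 FPKM in tumors. Tumor library 2 was highest, tumor library 1 lay under wild type, and the locus did not pass (log2 fold change 0.71, SE 0.52, adjusted p = 0.33). Without tumor library 2 its log2 fold change was 0.08. The ratio of Tnfsf11 to Tnfrsf11b was 0 and 0.00876 in wild type and 0.160, 0.0562 and 0.200 in tumors, and that of Tnfrsf11a to Tnfrsf11b was 0.191 and 0.190 in wild type and 1.98, 0.353 and 1.31 in tumors. Of 8 osteoclast markers 6 were tested and 4 rose, while Atp6v0d2 and Dcstamp did not pass. The 8 summed to 95.4 and 94.7 FPKM in wild type and 223, 211 and 439 FPKM in tumors. Atp6v0d2 was at 2.23 and 2.37 FPKM in wild type against 0.856, 0.806 and 10.3 FPKM in tumors, with overlapping groups. Calcr, a defining marker of the list, was under the filter, with no fragment in wild type and 5, 4 and 3 fragments in tumors.

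The member that fell was Tnfrsf19, a TRAF-binding orphan receptor also called TROY, at chr14:60963875-61046490. It measured 10.6 and 13.0 FPKM in wild type and 0.961, 1.69 and 0.371 FPKM in tumors, with every tumor library far under both wild-type libraries (log2 fold change -3.46, SE 0.63, adjusted p = 0.018). Without tumor library 1 the log2 fold change was -3.42 but the adjusted p was 0.052, and without tumor library 2 it was -4.10 and the adjusted p 0.012. The 10 markers of the retinal pigment epithelium, another tissue of the eye wall, summed to 17004 and 16848 FPKM in wild type and 284, 319 and 379 FPKM in tumors, and 8 of the 10 fell, beside the 9 of 10 pigment markers given above. The 14 photoreceptor markers, of which 13 fell, summed to 1254 and 1320.2 FPKM in wild type and 2.48, 9.12 and 6.37 FPKM in tumors. The part of these tissues in the fall of Tnfrsf19 was not tested.

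Tumor libraries were not alike for this family. Tumor library 3 was the highest of the 3 for 24 of the 33 tested members (72.7%), against 40.5% of all loci tested. It was the highest for 12 of the 18 members that rose, against 67.9% of all loci that rose. It exceeded 2 times the mean of tumor libraries 1 and 2 for 11 of the 33 (33.3%), against 6.16% of all loci tested and 15.0% of those that rose. The median ratio of library 3 to that mean was 1.52 for the members, 1.02 for all loci tested and 1.27 for loci that rose. Among the members with a large ratio, it was 10.9 for Tnfrsf9 and 7.44 for Tnfsf15. For Tnfrsf14, Cd40 and Tnfrsf1b it was 2.99, 2.87 and 2.62. It was 1.24 for Fas, 1.01 for the lymphocyte receptor Tnfrsf25 and 0.610 for the costimulatory ligand Tnfsf8. Tnfrsf12a and Tnfrsf10b stood at 0.835 and 0.815. In the same library the macrophage markers given above were highest, as were the dendritic cell markers (8.39 and 8.51 FPKM in wild type and 38.7, 38.1 and 83.4 FPKM in tumors, 5 of 10 rose) and the NK cell markers (3.74 and 4.09 FPKM in wild type and 13.9, 17.4 and 48.1 FPKM in tumors, 2 of 9 rose). All 15 macrophage, 7 of 10 dendritic and 8 of 9 NK cell markers were at their highest there, as were all 12 T cell markers other than Thy1. Of the B and plasma cell markers 7 of 10 were highest in tumor library 1. Neutrophil markers (19.1 and 17.3 FPKM in wild type and 49.6, 160.4 and 63.3 FPKM in tumors, 2 of 9 rose and 1 fell) had their highest sum in tumor library 2, where Ltf (1.83, 97.0 and 18.7 FPKM in tumors) and S100a9 (8.98, 40.9 and 9.09 FPKM) did not pass the test but make up most of it. Of the 8 neutrophil markers above 0 in a tumor, 5 were lowest in library 2. Fibroblast markers (1813 and 2014 FPKM in wild type and 3764, 2814 and 4515 FPKM in tumors, 5 of 10 rose and 1 fell) had their highest sum in library 3, with 5 of 10 highest there and 5 lowest there. Endothelial markers (288 and 275 FPKM in wild type and 249, 169 and 125 FPKM in tumors, 2 of 10 fell) had their lowest sum in library 3, with 8 of 10 lowest there. The part of these cell types in the spread was not tested.

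**Figure D4:**
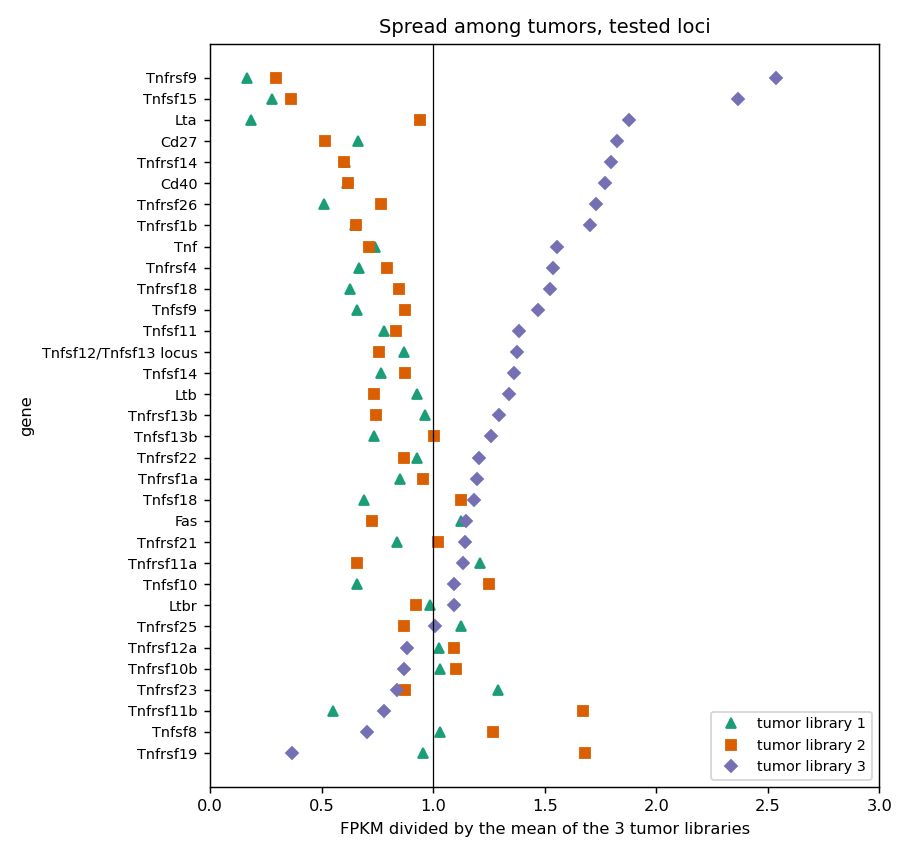
FPKM of each tumor library divided by the mean of the 3 tumor libraries (horizontal axis) for the 33 tested TNF superfamily loci (vertical axis), with triangles, squares and diamonds for tumor libraries 1, 2 and 3. The diamond of library 3 is rightmost for 24 of the 33 loci.

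Downstream of the receptors, a list of 50 adaptors, kinases, NF-kB subunits, inhibitors and caspases was read from the same fit. All 50 were tested, 22 rose, 3 fell (Map3k5, Tab1 and Fadd) and 25 did not pass, with a median log2 fold change of 0.46. Among all loci tested 18.7% rose and 15.4% fell, with a median of 0.048. A locus that rose holds the list gene Rnf31 together with Irf9. Without tumor library 1, 1 fell (13.7% of all loci), and DESeq2 called 23 rises and 6 falls with all libraries (22.4% and 19.9% of all loci). Without either wild-type library edgeR called none, with 18 rises at an unadjusted p under 0.05 each time, and DESeq2 called 13 and 14 rises (10.4% and 10.8% of all loci) and 1 fall each time (7.53% and 8.06%). Rel, a subunit prominent in lymphocytes, measured 0.750 and 0.685 FPKM in wild type and 2.03, 2.14 and 2.76 FPKM in tumors (log2 fold change 1.88, SE 0.26, adjusted p = 0.010). Nfkbiz, an atypical inhibitor and cofactor of NF-kB in the nucleus, was at 3.28 and 3.96 FPKM against 9.03, 10.8 and 12.1 FPKM in tumors (log2 fold change 1.60, SE 0.20, adjusted p = 0.0089). Nfkb1, Nfkb2 and Relb also rose. Rela, the subunit of the canonical pathway, was at 30.7 and 31.0 FPKM against 25.1, 36.5 and 38.4 FPKM in tumors and did not pass (adjusted p = 0.63). The feedback inhibitors Nfkbia and Tnfaip3 did not pass either, with adjusted p-values of 0.35 and 0.44, nor did Nfkbib. Nfkbie rose, from 1.78 and 1.77 FPKM to 9.35, 11.4 and 24.4 FPKM (log2 fold change 3.13, SE 0.53, adjusted p = 0.016). Tnip1, Birc3 and Bcl3 rose too, with adjusted p-values of 0.047, 0.020 and 0.015.

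Genes of cell death and of receptor proximal signalling were among those that moved. Casp8, the caspase that death receptors activate, measured 5.75 and 6.30 FPKM in wild type and 19.3, 16.6 and 25.5 FPKM in tumors (log2 fold change 1.81, SE 0.24, adjusted p = 0.0095). Mlkl, the membrane-rupturing effector of necroptosis, was at 0.893 and 1.11 FPKM against 9.25, 9.999 and 21.0 FPKM in tumors (log2 fold change 3.70, SE 0.52, adjusted p = 0.011). The necroptosis kinase Ripk3 rose as well. Adam17, the protease that sheds TNF and several of its receptors from the surface, was at 9.49 and 10.3 FPKM against 21.4, 21.2 and 28.2 FPKM in tumors (log2 fold change 1.30, SE 0.19, adjusted p = 0.012). Map3k5, a stress kinase activated downstream of TNF, fell, with every tumor library lower, from 18.9 and 19.7 FPKM to 4.401, 5.59 and 4.34 FPKM (log2 fold change -1.95, SE 0.16, adjusted p = 0.0050). Fadd, the adaptor between death receptors and Casp8, was at 11.6 and 10.8 FPKM against 6.03, 6.49 and 8.04 FPKM in tumors (log2 fold change -0.66, SE 0.19, adjusted p = 0.049). Of the TRAF adaptors in the list, Traf1 and Traf2 rose, and Traf3, Traf5 and Traf6 did not pass.

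**Figure D5:**
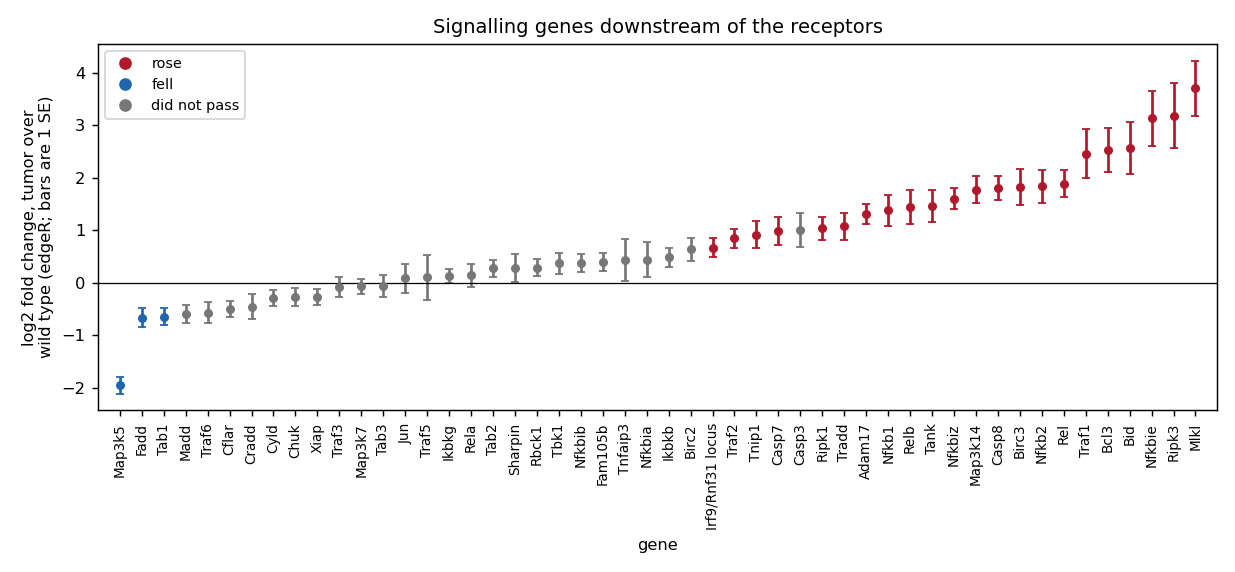
Log2 fold change of tumor over wild type with its SE (vertical axis) for the 50 genes of the TNF signalling list (horizontal axis). Color marks genes that rose, fell or did not pass. The 22 that rose lie between 0.67 and 3.70, and Map3k5 lies lowest at -1.95.

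A list of 30 genes known to respond to NF-kB matched 29 loci, of which 26 were tested. By edgeR, 14 rose and 0 fell, with a median log2 fold change of 3.25, where 18.7% of all loci tested rose and 15.4% fell, with a median of 0.048. At an unadjusted p under 0.05, 2 of the 26 were lower, and DESeq2 called 2 falls (19.9% of all loci). Cxcl13, the chemokine that draws B cells, measured 0.156 and 0.0840 FPKM in wild type and 16.8, 18.7 and 17.3 FPKM in tumors, a depth-scaled ratio of 150.4 (95% counting interval 51.2 to 731) with an adjusted p of 0.0029. Il1b, an inflammatory cytokine of myeloid cells, was at 0.730 and 0.644 FPKM against 21.4, 18.9 and 17.8 FPKM in tumors (log2 fold change 4.85, SE 0.27, adjusted p = 0.0029). Gadd45b, a stress response gene, was at 8.22 and 6.59 FPKM against 58.1, 63.7 and 65.0 FPKM in tumors (log2 fold change 3.12, SE 0.18, adjusted p = 0.0030). The chemokines Cxcl10, Ccl2 and Ccl7, which draw T cells and monocytes, rose too. Cxcl10 went from 2.58 and 1.44 FPKM to 65.2, 134 and 134 FPKM, Ccl2 from 0.745 and 0.938 FPKM to 64.5, 62.1 and 153 FPKM and Ccl7 from 1.01 and 0.407 FPKM to 109.9, 53.4 and 166 FPKM. Among those that did not pass were Mmp3, at 110.5 and 125 FPKM in wild type and 10.4, 33.8 and 3.57 FPKM in tumors, and Sod2, at 37.2 and 38.1 FPKM and 25.9, 14.6 and 23.0 FPKM, both lower in each tumor library. Without tumor library 2, edgeR called 2 falls (20.7% of all loci). Without either wild-type library it called no locus of the table.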

How the data were processed

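RNA-seq of 2 wild-type and 3 tumor libraries was used. Per the labels' protocols, frozen tissue gave Trizol RNA for an Illumina TruSeq kit. The submitters' processing notes name mm10, Cuffdiff, Cufflinks 2.2.1 and TopHat2 2.0.9. What each did, and the annotation, strand setting and filters, is not given in the sources used here. For every library and locus the deposited table has an unscaled estimated count of fragments and an FPKM that the authors scaled for length and depth, per the file headers. Estimated counts (96.8% to 97.1% whole) were rounded. Loci without a gene name (1.52% to 4.37% of fragments) stayed out. Replicate numbers in the table start at 0 and could not be tied to those of the labels, so libraries are named in table order within their condition. Deposited group means of FPKM were used only to count all loci above 1 FPKM.

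All named loci entered edgeR 4.0.16 (R 4.3.3): filterByExpr at a minimum count of 10, TMM scaling, two-sided quasi-likelihood F-test of tumor against wild type, Benjamini-Hochberg adjustment over all 15241 tested loci, threshold 0.05. Adjusted p-values are from edgeR unless another tool is named. "Rose" and "fell" are used of loci past the threshold. The SE is the log2 fold change over the square root of F. Where a member held 1 to 10 fragments in wild type in all, a depth-scaled ratio with an exact 95% interval is given, and also for Cxcl13. Where a member held 0, a fold against a floor of 3 counts per library is given if the mean tumor count exceeds that floor. Both cover counting error only. Alternatives were DESeq2 1.42.0, limma 3.58.1 (voom, and log2 of FPKM plus 1 or 0.1), library-size and RLE scaling, no filter, a minimum count of 50, no loci with several names, and each library left out (with DESeq2 as well, added after seeing the data). The test was checked on simulated counts. Coordinates come from GENCODE genes on mm10 and promoters from RefSeq on GRCm38.p6. Members and lists were chosen with earlier results of these data known. Values are given for members that pass, for Tnf, for partners of members that pass, and for up to 6 genes with the smallest p of each further list; the other genes named were chosen after their values were seen.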

Additional observations from a re-analysis of the deposited data

How the results depend on the processing

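Of the 19 members called, 12 passed wherever they had an adjusted p under the 15 other settings that keep both wild-type libraries, and 7 of the 14 uncalled members passed in some. The 7 called members lost in some are Cd40, Fas, Tnfrsf4, Tnfrsf18, Tnfrsf19 and Tnfrsf22, and Tnfrsf25 in DESeq2 without tumor library 1 (adjusted p = 0.068). Outside leaving a library out, the members that rose numbered 14 to 25, over unlike numbers tested. Limma-voom called 14 of 33, where 2491 of all 15241 loci rose. A minimum count of 50 gave 14 of 21, where 2758 of all 13234 rose. DESeq2 called 25 of 40 (22.4% of all loci with an adjusted p), against 18 of 33 in the main fit (18.7% of all loci). With 1 tumor library left out, edgeR called 17 to 20 rises and 0 to 1 falls among members. Among all 15053 to 15124 loci tested, 2398 to 3032 rose and 2067 to 3112 fell. In the signalling list there were 19 to 23 rises and 1 to 4 falls, and among NF-kB targets 14 to 16 rises and 0 to 2 falls. Without either wild-type library edgeR made no call at any locus. The lone wild-type library is then assumed to vary like the tumors. DESeq2 with 1 library left out called 11 to 22 rises and 1 to 2 falls among members, 13 to 22 and 1 to 4 in the signalling list, and 13 to 19 and 0 to 2 among NF-kB targets. The member fall, Tnfrsf19, was also lost without tumor library 1. DESeq2 gave 6 falls in the signalling list against 3, and among NF-kB targets 2 falls against 0, where limma-voom and limma on log2 FPKM with either pseudocount gave 1. Tnfsf10 changed sign without tumor library 1, to 0.058 in edgeR and 0.030 in DESeq2; with 1 library left out, edgeR values ran from -0.41 to 0.058. The cause of these changes was not tested. No paired analysis was possible because the replicate numbers in the table start at 0 and could not be tied to those of the labels. The 7 members under the filter held 0 to 26 estimated fragments per library and have no edgeR test.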
